A study of Mus musculus with 11 samples.

Results

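Macrophage and monocyte genes were followed as a set of 33 genes, listed by name for their use as markers of these cells, by a rule that sets no condition on a measured value, though the list was drawn up with earlier results of these data known. All 33 were among the 24411 genes of the files. They were described by role. Within them 5 genes labelled resident-type (Mrc1, Cd163, Folr2, Timd4 and Stab1) were set against 3 labelled monocyte-type (Ly6c2, Plac8 and Fcgr1). These labels only name the lists. Whether each gene, Fcgr1 included, is particular to resident macrophages or to blood-derived monocytes was not tested. RNA came from the back skin of mice with dermatitis raised by 6 topical applications of MC903 (calcipotriol), a vitamin D analog. All hosts were of the Tg(act-EGFP)Y01Osb strain, which carries a ubiquitous EGFP transgene, at an age given as 16 to 18 without a unit. All were irradiated with 10 Gy, were given, through the tail vein, marrow cells sorted from femurs of Pdgfra-Cre;tdTomato mice, recovered for 6 weeks before MC903, and had skin taken on day 14. In 7 samples the transplanted cells were tdTomato-negative (the negative group) and in 4 they were tdTomato-positive (the positive group), where tdTomato marks cells in which the Pdgfra-Cre driver is or was active. All samples described here had both the transplant and MC903. In whole skin, fewer cells of a type and less RNA per cell cannot be told apart, and neither can RNA of donor and of surviving host macrophages.

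Skin macrophages come from precursors seeded before birth and from marrow-derived monocytes, which enter inflamed skin from the blood and can mature there. Their development depends on the growth factor receptor gene Csf1r and on the transcription factor PU.1, encoded by Spi1, which binds purine-rich sites built around the letters GGAA and sets the myeloid programme. Mature dermal macrophages carry scavenger and endocytic receptors such as the mannose receptor Mrc1 and the haemoglobin receptor Cd163. Inflammatory monocytes carry Ly6C and the high-affinity immunoglobulin G receptor Fcgr1. Many of their receptors have no signalling domain of their own and act through the small membrane adaptors Tyrobp (DAP12) and Fcer1g (the Fc receptor gamma chain).

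Because PU.1 is shared by this lineage, the letters of its core site were looked for in the 250 bases before the start of each gene, on both strands, with RefSeq sequence of GRCm38.p6. Such a window was found for 25 of the 33 members, and none for Adgre1, Csf1r, Msr1, Tyrobp, Clec10a, Cd14, Spi1 and Lst1. A gene with several starts was counted once if any of its windows held the motif. The 6 letters GAGGAA were present in 14 of the 25 (56.0%), against 25.9% of 27025 genes with such a window. The 7 letters GAGGAAG, which contain the first motif, were present in 8 (32.0%, against 12.0%), and the 8 letters GAGGAAGT in 2, Ly6c2 and Fcgr4 (8%, against 2.79%). These matches describe the letters only. Windows are shown for Mrc1 as a resident-type gene (chr2:14229164-14229413, plus strand), Fcgr1 as a monocyte-type gene (chr3:96293970-96294219, minus strand) and Fcgr4, which holds the longest motif (chr1:171018676-171018925, plus strand). All 3 windows are read 5′ to 3′ toward the gene. Only matches to the longest motif found in each gene are in capitals, here all as the reverse complement of the motif. Matches to a shorter motif elsewhere in a window are not marked. The capitals lie 168 to 162 and 36 to 30 bases before the start in Mrc1, 56 to 50 bases before it in Fcgr1 and 24 to 17 bases before it in Fcgr4.
Mrc1: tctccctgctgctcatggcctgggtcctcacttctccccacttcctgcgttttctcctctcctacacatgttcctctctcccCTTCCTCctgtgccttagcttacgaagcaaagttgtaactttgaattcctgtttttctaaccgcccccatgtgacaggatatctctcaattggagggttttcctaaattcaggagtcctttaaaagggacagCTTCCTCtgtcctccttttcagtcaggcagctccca
Fcgr1: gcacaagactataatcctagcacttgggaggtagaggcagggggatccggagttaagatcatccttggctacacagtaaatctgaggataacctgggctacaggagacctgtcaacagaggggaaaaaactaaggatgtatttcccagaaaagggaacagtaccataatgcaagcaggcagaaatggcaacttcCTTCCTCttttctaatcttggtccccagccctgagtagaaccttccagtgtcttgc
Fcgr4: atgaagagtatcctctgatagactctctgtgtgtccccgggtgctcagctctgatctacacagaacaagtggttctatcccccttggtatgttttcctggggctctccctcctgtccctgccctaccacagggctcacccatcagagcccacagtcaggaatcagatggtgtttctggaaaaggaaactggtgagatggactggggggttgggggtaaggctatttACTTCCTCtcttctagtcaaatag

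Expected counts, the estimated reads per gene, summed to between 7190752 and 9749842 per sample, with no difference between the groups beyond their spread (two-sided exact permutation p = 0.536). Markers of keratinocytes and fibroblasts, which define skin, were high in all 11 libraries (summed TPM, an abundance scaled to gene length and library size, of 5 keratinocyte genes 9422 to 34242). Hair follicle transcripts differed widely, and a hair score (the mean z-score of 20 hair follicle genes) was -0.50, -1.27, -1.06 and 0.48 in positive replicates 1 to 4. In the negative group it was -0.46 in replicate 1, -1.58 in replicate 7 and 0.73 to 1.14 in the other samples. The labels do not say that each sample is its own animal, so the p-values reflect only how far these samples spread, which may be technical. No batch or date is named in the labels.

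The macrophage and monocyte genes were highest in the same 2 libraries of the positive group. Positive replicate 1 had the highest level of all 11 samples in 25 of 31 tested members, against 13.8% of all genes tested, and positive replicate 2 in 4 more. The other 2 members, Apoe and Gpnmb, were highest in negative replicate 3. Over the tested members, the median ratio to the mean of the negative samples was 2.27 in positive replicate 1 and 1.70 in replicate 2. It was 0.889 in replicate 3 and 1.002 in replicate 4, and 0.746 to 1.17 in the single negative samples. In 22 of 31 members, positive replicates 1 and 2 both lay above all 7 negative samples, and in 23 of 31, positive replicates 3 and 4 both lay within the negative range. Both pairs follow the levels of these same members. The share of all genes tested with either pattern was not counted, so these counts only describe the members. The groups overlapped in all 31 members. Among all genes tested, every positive sample lay above every negative sample in 0.61% and below in 1.06%. The spread within the positive group was the larger one in 27 of 31 members, with a median coefficient of variation of 44.0% against 22.9% in the negative group. Over all genes tested this was so in 47.1%.

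**Figure D1:**
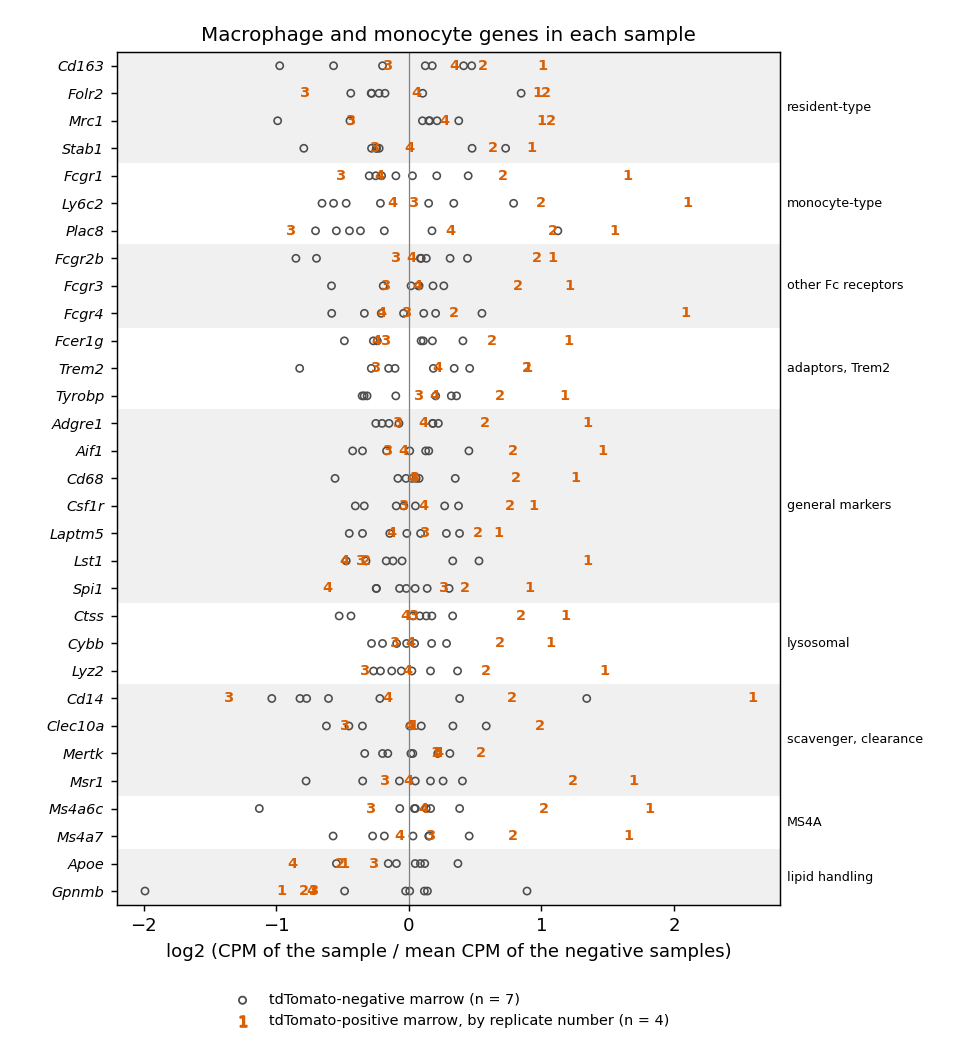
Level of each of the 31 tested members in each sample, as log2 of CPM (counts scaled to library size) over the mean of the negative samples, with negative samples as open circles and positive samples as their replicate numbers. The numbers 1 and 2 lie to the right of all circles in 22 members, the numbers 3 and 4 lie among the circles in 23, and the positive samples of Apoe and Gpnmb lie left of the mean of the negative samples.

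The 2 members left out of the test had too few counts for the low-count filter. Timd4, a receptor for phosphatidylserine on resident macrophages, had 1 to 12 counts per sample, and Marco, a scavenger receptor of macrophages in spleen and lung, had 0 to 4. A count of 0 in 1 sample allows up to 3 counts. The test was edgeR's quasi-likelihood test on all 14588 genes that passed the filter, with group as its only term, and each log2 fold change is positive minus negative. The log2 fold change lay above 0 in 29 of 31 members, against 48.6% of all genes tested. Their median was 0.59, against -0.01 over all genes tested. None of the members passed a Benjamini-Hochberg adjusted p of 0.05 in edgeR, where 0% of all genes did, and the adjusted p of the members ran from 0.248 to 0.716. At an unadjusted p under 0.05, 14 members were higher, against 7.05% of all genes tested, and 1 (Apoe) was lower, against 9.73%.

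DESeq2 and limma-voom also called 0 members, at backgrounds of 0.318% higher and 0.303% lower for DESeq2 and 0% for limma-voom. With sample quality weights, by contrast, limma-voom called 9 members higher and 1 lower (backgrounds 6.73% and 7.62%). Stab1 was the 1 resident-type gene among the 10, and no monocyte-type gene was called. Positive replicate 1 carried much of the size: without it 27 members were above 0 (background 49.2%), the median was 0.28, and at an unadjusted p under 0.05 only Mertk was higher (background 3.85%) and only Apoe lower (5.66%). With the hair score as a covariate, 29 were above 0 (background 49.5%), the median was 0.41, and no member had an unadjusted p under 0.05 in either direction (backgrounds 3.24% and 4.67%).

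**Figure D2:**
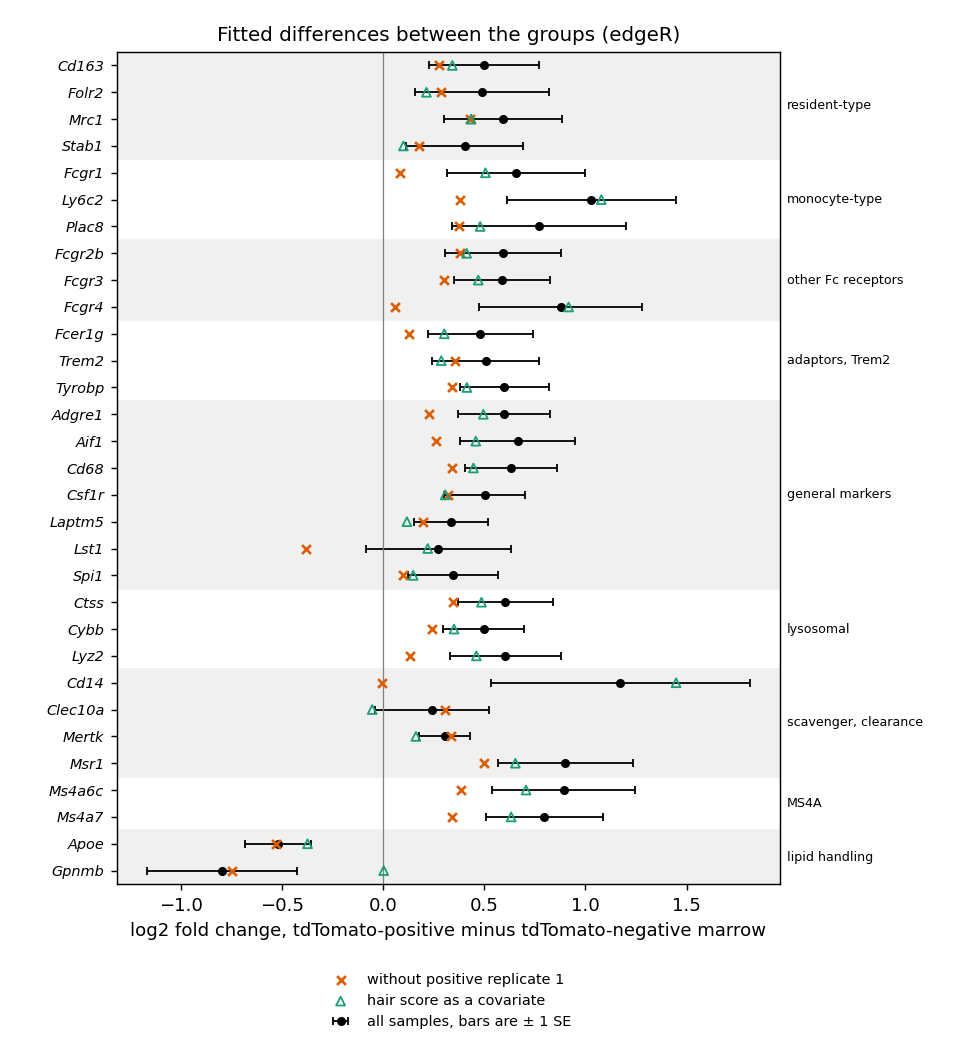
Log2 fold change of each tested member, positive minus negative, grouped by role, from edgeR with all 11 samples, without positive replicate 1, and after adding the hair score to the model, with bars of 1 standard error for the fit on all 11 samples. The values on all 11 samples lie above 0 for 29 members and below 0 for Apoe and Gpnmb, and those without positive replicate 1 lie mostly closer to 0.

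Among the resident-type genes, Mrc1, Cd163 and Folr2 were higher in positive replicates 1 and 2 than in any other sample, and Stab1 and Timd4 were not. Mrc1, the mannose receptor that takes up glycoproteins (chromosome 2, 14229414 to 14332023), was the most abundant of them per transcript length, with a mean TPM of 94.3 over the 11 samples. Mrc1 was at 132 to 341 CPM (median 292) in the negative samples and at 524, 551, 194 and 316 CPM in positive replicates 1 to 4. Replicates 1 and 2 lay above all negative samples, and replicates 3 and 4 inside their range. The group levels of Mrc1 were 396 ± 171 (SD, n = 4) against 263 ± 72.9 (n = 7) CPM, a log2 fold change of 0.59 ± 0.29 (SE), edgeR adjusted p = 0.322.

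Cd163 was at 35.4 to 96.7 CPM (median 75.8) in the negative samples and at 139.7, 102, 62.3 and 88.1 CPM in positive replicates 1 to 4. Cd163 takes up haptoglobin-bound haemoglobin, and its replicates 1 and 2 again lay above all negative samples, with a log2 fold change of 0.50 ± 0.27 (SE), edgeR adjusted p = 0.364. Folr2, the folate receptor beta of perivascular macrophages, was lower in abundance. Folr2 was at 11.6 to 28.3 CPM (median 13.5) in the negative samples and at 30.8, 32.2, 9.14 and 16.3 CPM in positive replicates 1 to 4. Its highest negative value, in negative replicate 7, lay just below positive replicates 1 and 2, positive replicate 3 lay below all negative samples, and the log2 fold change was 0.49 ± 0.33 (SE), edgeR adjusted p = 0.449. Stab1 encodes the scavenger receptor stabilin-1. Stab1 was at 73.0 to 209.7 CPM (median 107) in the negative samples and at 239.5, 196, 106 and 127 CPM in positive replicates 1 to 4. Only positive replicate 1 of Stab1 lay above all negative samples, and the log2 fold change was 0.40 ± 0.29 (SE), edgeR adjusted p = 0.476, and 0.18 without that library. Timd4 was near its detection limit in both groups. Timd4 was at 0.119 to 1.33 CPM (median 0.418) in the negative samples and at 0.748, 0.767, 0.411 and 1.62 CPM in positive replicates 1 to 4. At 1 to 12 counts per sample, Timd4 was left out of the test, so nothing can be said on a difference between the groups. The 4 tested resident-type genes had a median log2 fold change of 0.49, or 0.28 without positive replicate 1, and none of the 4 had an unadjusted p under 0.05.

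The monocyte-type genes were set further apart in positive replicate 1 than the resident-type genes. Ly6c2 encodes the Ly6C surface antigen of inflammatory monocytes. Ly6c2 was at 2.16 to 5.87 CPM (median 2.93) in the negative samples and at 14.6, 6.77, 3.49 and 3.11 CPM in positive replicates 1 to 4. Positive replicates 1 and 2 lay above all negative samples, while 3 and 4 lay among them. Its log2 fold change was 1.03 ± 0.42 (SE), edgeR adjusted p = 0.266, and without positive replicate 1 it was 0.38. Ly6c2 is a close copy of its neighbour Ly6c1, a gene also of endothelium, which had a mean TPM of 115 against 12.5 for Ly6c2. Expected counts of Ly6c2 were not whole numbers in any of the 11 samples, so they depend on how RSEM divided shared reads.

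Plac8, a small cysteine-rich protein of monocytes and other leukocytes, was the most abundant of the 3 per transcript length (mean TPM 46.8). Plac8 was at 7.01 to 24.9 CPM (median 8.86) in the negative samples and at 33.4, 24.3, 6.16 and 14.2 CPM in positive replicates 1 to 4. Its highest negative value, in negative replicate 7, exceeded positive replicate 2, positive replicate 3 lay below all negative samples, and the log2 fold change was 0.77 ± 0.43 (SE), edgeR adjusted p = 0.370. Fcgr1 encodes the high-affinity receptor for immunoglobulin G (chromosome 3, 96282909 to 96293969). Fcgr1 was at 8.08 to 13.6 CPM (median 9.29) in the negative samples and at 31.2, 16.2, 6.99 and 8.51 CPM in positive replicates 1 to 4. Replicate 1 was 1.92 times replicate 2, both lay above all negative samples, and replicate 3 lay below them. The log2 fold change of Fcgr1 was 0.66 ± 0.34 (SE), edgeR adjusted p = 0.340, and without positive replicate 1 it was 0.08. The median over the 3 monocyte-type genes was 0.77, and without positive replicate 1 it was 0.38.

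Between positive replicates 1 and 2, the resident-type genes differed less than the monocyte-type genes did for Ly6c2 and Fcgr1. The ratio of replicate 1 to replicate 2 in CPM was 0.951 for Mrc1, 0.956 for Folr2, 1.22 for Stab1 and 1.36 for Cd163. It was 1.38 for Plac8, 1.92 for Fcgr1 and 2.15 for Ly6c2. These are single libraries, so the difference between them has no replicate check.

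Summed TPM gave the balance of the 2 types within each sample. The resident-type sum was 201, 152, 86.0, 121, 163, 165 and 227 in negative replicates 1 to 7 and 307, 295, 126 and 190.2 in positive replicates 1 to 4. The monocyte-type sum was 40.4, 46.9, 31.1, 54.1, 36.9, 58.1 and 101.8 in the negative samples and 167, 105, 35.7 and 62.4 in the positive samples. Both sums were highest in positive replicate 1, and among the negative samples both were highest in replicate 7 and lowest in replicate 3.

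The resident-to-monocyte ratio overlapped between the groups. It was 4.99, 3.24, 2.76, 2.24, 4.42, 2.84 and 2.23 in negative replicates 1 to 7 and 1.84, 2.81, 3.54 and 3.05 in positive replicates 1 to 4. The means were 2.81 ± 0.712 (SD, n = 4) for positive samples and 3.25 ± 1.07 (SD, n = 7) for negative samples, a difference smaller than the spread within either. Positive replicate 1 had the lowest ratio of all 11 samples, and the other 3 positive samples lay inside the negative range. Since Mrc1 made up 39.9% to 56.8% of the resident-type sum and Plac8 55.4% to 82.9% of the monocyte-type sum, the ratio follows these 2 genes most.

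**Figure D3:**
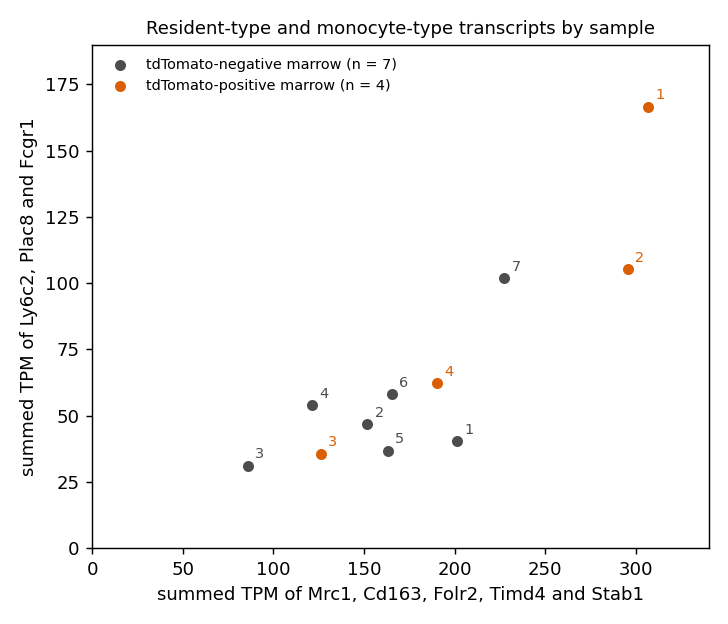
Summed TPM of the 5 resident-type genes (x axis) and of the 3 monocyte-type genes (y axis) in each of the 11 samples, 1 point per sample with its replicate number, negative samples in grey and positive samples in orange. Positive replicate 1 lies farthest right and highest (307 and 167), positive replicate 2 is at 295 and 105, positive replicates 3 and 4 lie among the negative samples, and negative replicate 7 has the highest monocyte-type sum of its group at 101.8.

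The other receptors for immunoglobulin G lie together on chromosome 1, in the order Fcgr2b (170960558 to 170976071), Fcgr4 (171018926 to 171029761) and Fcgr3 (171051169 to 171065915), followed by Fcer1g (171229572 to 171234349). All 4 had a log2 fold change above 0. Fcgr2b, the inhibitory receptor, was the most abundant of the Fc gamma receptors per transcript length (mean TPM 113). Fcgr2b was at 40.8 to 100.1 CPM (median 78.6) in the negative samples and at 156, 144, 68.7 and 74.7 CPM in positive replicates 1 to 4. Replicates 1 and 2 lay above all negative samples and 3 and 4 within them, and the log2 fold change was 0.59 ± 0.29 (SE), edgeR adjusted p = 0.316. Fcgr3, an activating receptor of lower affinity, had group levels of 57.9 ± 25.5 (SD, n = 4) against 38.5 ± 6.87 (n = 7) CPM and a log2 fold change of 0.59 ± 0.24 (SE), edgeR adjusted p = 0.265. Fcgr4, another activating receptor, was at 17.2 CPM in positive replicate 1 and at 3.51 to 5.11 CPM in the other 3 positive samples, against 2.70 to 5.93 CPM in the negative samples. The fitted log2 fold change was 0.88 ± 0.40 (SE), edgeR adjusted p = 0.297, and without positive replicate 1 it was 0.06, so the value rests on that library. Reads of Fcgr2b and Fcgr3 were in part divided with other genes in all 11 samples.

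The adaptor genes were high in the same 2 positive samples. Tyrobp carries the signal of Trem2 and related receptors, and Fcer1g that of the activating Fc receptors. Tyrobp was at 16.8 to 27.5 CPM (median 20.03) in the negative samples and at 48.4, 34.5, 22.6 and 24.4 CPM in positive replicates 1 to 4. Positive replicates 1 and 2 lay above all negative samples, and 3 and 4 lay between the negative median and maximum. The log2 fold change of Tyrobp was 0.60 ± 0.22 (SE), edgeR adjusted p = 0.254, with an unadjusted p of 0.0179. Fcer1g had group levels of 33.7 ± 16.5 (SD, n = 4) against 24.1 ± 5.11 (n = 7) CPM and a log2 fold change of 0.48 ± 0.26 (SE), edgeR adjusted p = 0.361, and without positive replicate 1 it was 0.13. Trem2, the lipid-sensing receptor that signals through Tyrobp, had the same level in positive replicates 1 and 2 (9.72 and 9.71 CPM) and a log2 fold change of 0.51 ± 0.27 (SE), edgeR adjusted p = 0.343.

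The general markers of the lineage had log2 fold changes of 0.27 to 0.66, all 7 above 0. Spi1, which encodes PU.1, was at 8.35 to 12.2 CPM in the negative samples and at 6.48 to 18.6 CPM in the positive samples, with replicate 4 below all negative samples. On the log2 scale, the fitted fold change was 0.34 ± 0.22 (SE), edgeR adjusted p = 0.426. Csf1r, the receptor for the macrophage growth factors CSF1 and IL-34, had group levels of 197 ± 64.1 (SD, n = 4) against 139 ± 27.8 (n = 7) CPM and a log2 fold change of 0.50 ± 0.20 (SE), edgeR adjusted p = 0.264. Adgre1, which encodes the F4/80 antigen, had a log2 fold change of 0.60 ± 0.23 (SE), edgeR adjusted p = 0.256. Aif1, the actin-binding protein Iba1, had a log2 fold change of 0.66 ± 0.29 (SE), edgeR adjusted p = 0.282, and Laptm5, a lysosomal membrane protein of leukocytes, had a log2 fold change of 0.33 ± 0.18 (SE), edgeR adjusted p = 0.365. Without positive replicate 1 the log2 fold change was 0.10 for Spi1, 0.23 for Adgre1 and 0.26 for Aif1. Lst1, a small leukocyte membrane protein, was at 7.73 CPM in positive replicate 1 and at 2.16 to 2.43 CPM in the other 3. Its log2 fold change was 0.27 on all 11 samples and -0.38 without that library.

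Cd68, a lysosomal glycoprotein of phagocytes, had the second smallest unadjusted p of the members (0.0168). Cd68 was at 20.1 to 37.6 CPM (median 30.0) in the negative samples and at 70.7, 51.6, 30.4 and 30.1 CPM in positive replicates 1 to 4. The high pair stood clear of all negative samples and the other 2 positive samples lay at the negative median. Its group levels were 45.7 ± 19.4 (SD, n = 4) against 29.5 ± 5.20 (n = 7) CPM, a log2 fold change of 0.63 ± 0.23 (SE), edgeR adjusted p = 0.254.

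Among the genes of lysosomal digestion and microbial killing, Lyz2 and Ctss were the most abundant members per transcript length after Apoe. Lyz2 encodes lysozyme M, which cuts bacterial cell walls (mean TPM 456). Lyz2 was at 173 to 268 CPM (median 199.7) in the negative samples and at 578, 311, 165 and 206 CPM in positive replicates 1 to 4. Positive replicate 1 was far above the rest, replicate 2 next, replicate 3 below all negative samples, and replicate 4 near the negative median. The log2 fold change of Lyz2 was 0.60 ± 0.27 (SE), edgeR adjusted p = 0.295, and without positive replicate 1 it was 0.13. Ctss is cathepsin S, which trims the invariant chain for antigen presentation (mean TPM 202). Ctss was at 86.9 to 157 CPM (median 132) in the negative samples and at 284, 224, 128 and 123 CPM in positive replicates 1 to 4. Replicates 3 and 4 lay just below the negative median, and the log2 fold change was 0.60 ± 0.24 (SE), edgeR adjusted p = 0.261. Cybb, the catalytic subunit of the phagocyte oxidase, had a log2 fold change of 0.50 ± 0.20 (SE), edgeR adjusted p = 0.265.

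Of the scavenger and clearance receptors, Msr1 had the smallest unadjusted p (0.0194). It encodes class A scavenger receptor, which binds modified lipoproteins. Msr1 was at 7.28 to 16.5 CPM (median 12.9) in the negative samples and at 40.3, 29.4, 10.99 and 12.4 CPM in positive replicates 1 to 4. The group levels were 23.3 ± 14.1 (SD, n = 4) against 12.4 ± 3.13 (n = 7) CPM, a log2 fold change of 0.90 ± 0.33 (SE), edgeR adjusted p = 0.254. Mertk, the receptor tyrosine kinase with which macrophages engulf dying cells, had another pattern. Its positive samples were at 31.3, 39.6, 31.7 and 31.7 CPM, all 4 above the negative median of 27.5 CPM (range 21.6 to 33.7). The fitted log2 fold change was small, 0.30 ± 0.13 (SE), edgeR adjusted p = 0.269. For Mertk it did not shrink without positive replicate 1 (0.34), but it did with the hair score as a covariate (0.16). Cd14, the co-receptor for lipopolysaccharide, was at 133 CPM in positive replicate 1 and at 8.63 to 37.8 CPM in the other 3, against 10.8 to 55.9 CPM in the negative samples. Its log2 fold change of 1.17 ± 0.64 (SE), edgeR adjusted p = 0.363, became -0.0048 without positive replicate 1. Clec10a, a galactose-type lectin also found on dendritic cells, was highest in positive replicate 2 (78.8 CPM), with a log2 fold change of 0.24 ± 0.28 (SE), edgeR adjusted p = 0.674. The sign of Clec10a turned without that library (-0.12) and after the hair score was added to the model (-0.055).

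The 2 members of the MS4A family of membrane proteins had unadjusted p-values of 0.0181 (Ms4a7) and 0.0265 (Ms4a6c). Ms4a7 is found on mature macrophages. Ms4a7 was at 12.3 to 25.0 CPM (median 18.6) in the negative samples and at 57.5, 31.4, 20.4 and 17.3 CPM in positive replicates 1 to 4. Positive replicate 1 was 1.83 times replicate 2, and 3 and 4 lay within the negative range. On the log2 scale, the fitted fold change was 0.80 ± 0.29 (SE), edgeR adjusted p = 0.254, and without positive replicate 1 it was 0.34. Ms4a6c, found on monocytes, had a log2 fold change of 0.89 ± 0.35 (SE), edgeR adjusted p = 0.263, and its reads were in part divided with other genes in all 11 samples.

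Apoe and Gpnmb, the 2 members listed here under lipid handling, were the only ones with a lower mean in the positive group. Trem2 and Msr1, which also bind lipids but were listed under other roles, had log2 fold changes above 0 (0.51 and 0.90). The 2 lower members therefore do not stand for lipid handling as a whole. Apoe encodes apolipoprotein E, which macrophages and also other skin cells secrete (chromosome 7, 19696244 to 19701310). It was by far the most abundant member, with a mean TPM of 3129.9. Apoe was at 1647 to 3108 CPM (median 2486) in the negative samples and at 1713, 1679, 1999 and 1307 CPM in positive replicates 1 to 4. Positive replicate 4 lay below all negative samples, and the other 3 lay in the lower part of the negative range. The group levels of Apoe were 1674 ± 284 (SD, n = 4) against 2403 ± 452 (n = 7) CPM, a log2 fold change of -0.52 ± 0.16 (SE), edgeR adjusted p = 0.248, with an unadjusted p of 0.00758, the smallest of the members. Leaving out each sample in turn gave log2 fold changes of -0.61 to -0.42 for Apoe, and the hair score as a covariate gave -0.38. Among the negative samples Apoe was lowest in replicate 7, the library with the lowest hair score. The positive samples did not follow that order. Positive replicate 4 had the highest hair score of its group (0.48) and the lowest Apoe of all samples. Positive replicate 3, with a hair score of -1.06, had the highest Apoe of its group. The part of hair content in the Apoe result was not tested further.

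Apoe weighed on the sum of the set. All 33 members took 0.401% ± 0.0965 (SD, n = 4) of all counts with tdTomato-positive marrow and 0.402% ± 0.0310 (SD, n = 7) with tdTomato-negative marrow. Without Apoe, the shares were 0.232% ± 0.0936 (SD, n = 4) and 0.164% ± 0.0225 (SD, n = 7). The share of the members' counts that came from Apoe was 43.6% ± 10.9 (SD, n = 4) against 58.9% ± 7.55 (SD, n = 7).

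Gpnmb, a glycoprotein of lipid-laden macrophages that melanocytes also make, had a narrow range in the positive group. Its positive samples were at 80.3, 90.2, 95.1 and 93.9 CPM, inside the negative range of 39.4 to 289.9 CPM (median 157). The log2 fold change was -0.80 ± 0.37 (SE), edgeR adjusted p = 0.303, and it was 0.0017 with the hair score as a covariate. Melanocyte markers were lower in the same comparison. The summed TPM of 5 melanocyte genes was 9.17, 20.1, 33.5 and 38.7 in positive replicates 1 to 4 and 33.0 to 121 in the negative samples. All 5 had a log2 fold change below 0 and an unadjusted p under 0.05, against 9.73% of all genes tested. The part of melanocytes in the Gpnmb result was not tested.

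**Figure D4:**
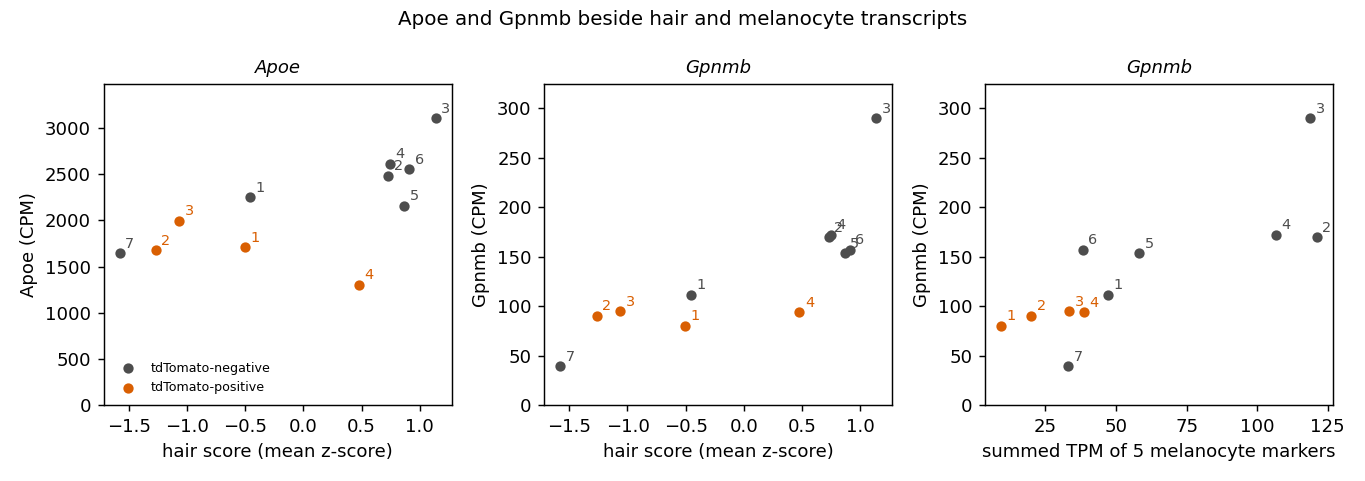
CPM of Apoe and Gpnmb (y axes) by the hair score of the sample (left and middle) and CPM of Gpnmb by the summed TPM of 5 melanocyte markers (right), 1 point per sample with its replicate number, negative samples in grey and positive samples in orange. Negative replicate 7, with the lowest hair score (-1.58), has the lowest level of both genes in its group. Positive replicate 4, with the highest hair score of its group, has the lowest Apoe of all samples. The 4 positive Gpnmb values lie between 80.3 and 95.1 CPM.

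Other genes of macrophage biology were described by list. Of their 42 genes 39 were tested, and 0 passed an adjusted p of 0.05 in edgeR, DESeq2 or limma-voom. At an unadjusted p under 0.05, edgeR gave 9 higher and 1 lower, where 7.05% and 9.73% of all genes tested were. Of all genes tested, 48.6% had a log2 fold change above 0, a share that applies to each list below. After adjustment, limma-voom with quality weights called 6 higher and 1 lower, against 6.73% and 7.62% of all genes. The complement C1q chains, which tissue macrophages make in bulk, were above 0 in 3 of 3, all 3 with an unadjusted p under 0.05, and had a median log2 fold change of 0.56. C1qc had 102 ± 39.1 (SD, n = 4) against 69.8 ± 9.67 (n = 7) CPM and a log2 fold change of 0.54 ± 0.20 (SE), edgeR adjusted p = 0.254. C1qa had a log2 fold change of 0.57 ± 0.23 (SE), edgeR adjusted p = 0.265. Without positive replicate 1 the median of the C1q list was 0.30.

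Signalling genes downstream of the adaptors and Fc receptors were above 0 in 9 of 10, with a median of 0.39 (0.21 without positive replicate 1). At an unadjusted p under 0.05, 4 of the 10 were higher, against 7.05% of all genes tested. Inpp5d, the inositol phosphatase SHIP1 recruited by inhibitory receptors, had 46.7 ± 16.7 (SD, n = 4) against 32.4 ± 3.85 (n = 7) CPM and a log2 fold change of 0.53 ± 0.18 (SE), edgeR adjusted p = 0.248.

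The activation list of cytokines, arginine-metabolising enzymes and their companions was above 0 in 7 of 8 tested genes of 10, with a median of 0.57 that was -0.02 without positive replicate 1. Nos2, which makes nitric oxide, had 2.805 ± 1.74 (SD, n = 4) against 1.11 ± 0.583 (n = 7) CPM and a log2 fold change of 1.34 ± 0.43 (SE), edgeR adjusted p = 0.248. Tnf, the inflammatory cytokine, had a log2 fold change of 1.28 ± 0.56 (SE), edgeR adjusted p = 0.284. Both are also made by other cells of skin.

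Genes of growth and recruitment were above 0 in 9 of 10 tested genes of 11, with a median of 0.25 and none at an unadjusted p under 0.05. Csf2rb, the shared beta chain of the GM-CSF, IL-3 and IL-5 receptors, had a log2 fold change of 0.39 ± 0.28 (SE), edgeR adjusted p = 0.475, and Ccl12, a chemokine for monocytes, had a log2 fold change of 0.63 ± 0.46 (SE), edgeR adjusted p = 0.483. Without positive replicate 1 the median of the list was 0.04. The transcription factors of the lineage showed no common direction, with 4 above and 4 below 0 and a median of 0.02. Cebpb, a factor of myeloid and inflammatory genes, was lower at 111 ± 16.7 (SD, n = 4) against 136 ± 12.6 (n = 7) CPM, a log2 fold change of -0.29 ± 0.10 (SE), edgeR adjusted p = 0.254. Irf8, which directs monocyte development, had a log2 fold change of 0.28 ± 0.16 (SE), edgeR adjusted p = 0.379.

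Markers of other cell types were followed beside these genes. The summed TPM of 8 neutrophil genes was 108, 60.2, 13.1 and 54.4 in positive replicates 1 to 4 and 13.1 to 52.6 in the negative samples, with Ngp, Camp and Ltf under the low-count filter. All 5 tested neutrophil genes were above 0, 3 of them with an unadjusted p under 0.05, against 7.05% of all genes tested. The 5 T cell genes summed to 15.8 to 33.9 TPM in the positive and 8.93 to 23.2 in the negative samples, and all 5 were above 0, 2 with an unadjusted p under 0.05. Some lists of cells outside the blood lineages also lay above 0, where 48.6% of all genes tested did. They had 5 of 5 genes of blood endothelium (3 with an unadjusted p under 0.05), 5 of 5 of adipocytes (3) and 6 of 6 of fibroblasts (2). Keratinocytes (1) and skeletal muscle (0) had 5 of 5 each. By contrast, all 20 hair follicle genes (median log2 fold change -2.37) and all 5 melanocyte genes (median -1.58) lay below 0. The 7 genes of Langerhans and dendritic cells summed to 21.4 to 32.6 and 16.6 to 29.9 TPM, with 4 above and 3 below 0. The 5 genes of lymphatic endothelium summed to 111, 91.3, 56.8 and 64.5 TPM in positive replicates 1 to 4. In the negative samples they summed to 47.7 to 79.0 TPM. Of these genes 4 lay above 0 and 1 below, with 1 higher at an unadjusted p under 0.05. Positive replicate 1, the highest sample for most members, was the highest for neutrophil and lymphatic endothelium genes. Positive replicate 2 was the highest for T cell genes and positive replicate 3 for Langerhans and dendritic cell genes. The 4 B cell genes summed to at most 2.61 TPM in any sample. The part of these cells, or of other skin content, in the members' values was not tested.

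**Figure D5:**
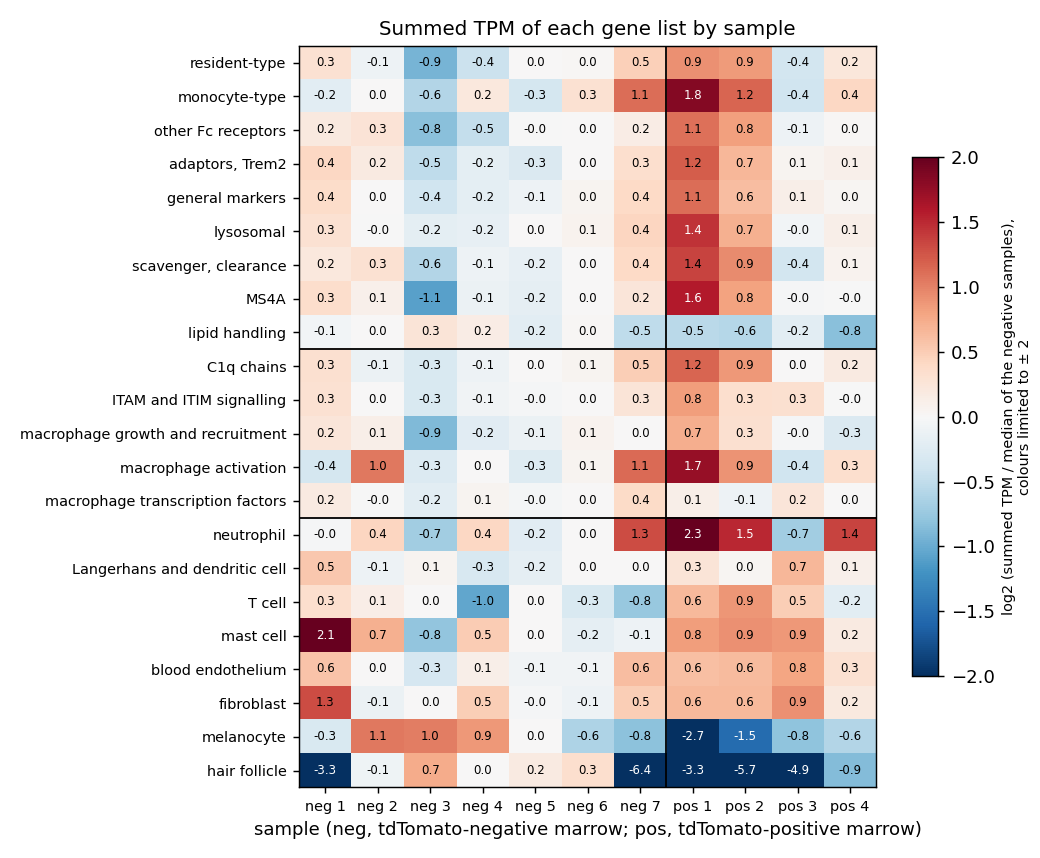
Log2 of the summed TPM of each gene list over the median of the negative samples, for the lists of members (top), of other macrophage genes (middle) and of other cell types (bottom), with 1 column per sample, red for higher and blue for lower. Positive replicates 1 and 2 are red in the lists of members other than lipid handling, positive replicates 3 and 4 are near the negative median in most of them, and melanocyte and hair follicle sums are blue in all 4 positive samples.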

How the data were processed

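Total RNA of back skin was sequenced on a NextSeq2000 after removal of ribosomal RNA, per the labels' protocols. RSEM, Trim Galore and bcl2fastq are listed with the GRCm38 build in the submitters' processing notes. Tool versions, strand setting and aligner: not given in the sources used here. Expected counts deposited by the authors are RSEM's estimated reads per gene, not normalized. The TPM deposited by the authors are relative to effective gene length. The deposited effective lengths and FPKM were not used in any result.

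Expected counts were rounded. Of 24411 genes, 14588 passed edgeR's filterByExpr (minimum count 10, minimum total 15). The test was edgeR 4.0.16 glmQLFit (legacy mode) and glmQLFTest on TMM-scaled counts in R 4.3.3, positive minus negative, with Benjamini-Hochberg adjustment over all tested genes and a threshold of 0.05. CPM use the TMM-scaled totals of tested genes. Standard errors were taken as the size of the log2 fold change over the root of F. The scripts were tested on simulated data. Other tools were DESeq2 1.42.0 (default settings except alpha, set to 0.05, with 7184 adjusted p left as NA) and limma 3.58.1. Floors cover counting error only. Levels are compared between genes as TPM.

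The members and lists were chosen with earlier results of these data known. Values in every positive sample, with the range and median of the negative samples, are given by a fixed rule. It covers the resident-type and monocyte-type genes, the 5 other members with the smallest p and the 3 others with the highest mean TPM. Up to 2 genes with the smallest p are named from each related list. A result that this rule would name is not reported here. For 7 members (Lyz2, Ly6c2, Fcgr3, Fcgr2b, Ms4a6c, Clec10a and Stab1) expected counts were further than 0.005 from a whole number in 9 to 11 samples, so reads were divided with other genes. Coordinates and sequences are RefSeq, GRCm38.p6. Leaving out samples in the test of total counts was added after seeing the data.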

Additional observations from a re-analysis of the deposited data

Results flagged for a closer look

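In 68 sets of values (each tested member, and the summed TPM of both types with their ratio, in each group), 8 had a sample set far apart from the others of its group. At 1 in 20, chance would give about 3.4 if the sets were independent. The sets were not independent, as they share samples, and Plac8 made up 82.9% of the monocyte-type sum in negative replicate 7. No excess over chance can be read from these numbers. In the positive group, Fcgr4 was at 17.2 CPM in replicate 1 against 3.51 to 5.11 in the others, and Lst1 was at 7.73 CPM in replicate 1 against 2.16 to 2.43. Mertk was at 39.6 CPM in positive replicate 2 against 31.3 to 31.7. In the negative group, replicate 7 stood high for Folr2 (28.3 CPM, others 11.6 to 16.9), for Plac8 (24.9 CPM, others 7.01 to 12.9) and for the summed monocyte-type TPM (101.8, others 31.1 to 58.1). Cd14 was at 55.9 CPM in negative replicate 2 against 10.8 to 28.8, and Ms4a6c was at 9.57 CPM in negative replicate 3 against 19.9 to 27.3.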

How the results depend on the processing

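Genes called over all tested genes numbered 0 in edgeR, 78 with DESeq2, 2093 with quality-weighted limma-voom and 0 to 3 when each sample was left out in turn (3 without negative replicate 7, 1 without negative replicate 4). Members at an unadjusted p under 0.05 numbered 15, against 7 with limma-voom, 26 with quality weights, 9 with limma on log2(TPM + 1) and 0 with the hair score. They numbered 2 (without positive replicate 1) to 25 (without positive replicate 3) when each sample was left out. The median log2 fold change over the tested members was then 0.28 to 0.76. Over all genes tested, 7.05% were higher and 9.73% lower at an unadjusted p under 0.05 in edgeR. These shares were 3.24% and 4.67% with the hair score, and 3.85% and 5.66% without positive replicate 1. They were not counted for the other settings, so member counts there cannot be set against all genes. The mean log2 resident-to-monocyte ratio, positive minus negative, was -0.19, and -0.31 to 0.0038 when each sample was left out, where it turned without positive replicate 1. The difference in total counts ran from -200488 (without positive replicate 3) to 639803 when each sample was left out. Of 651 member values over the alternatives, 636 kept their direction and side of the threshold, 10 passed it with quality weights, and 5 turned: Clec10a at -0.055 and Gpnmb at 0.0017 with the hair score, and, when each sample was left out, Clec10a (-0.12 to 0.43, lowest without positive replicate 2), Lst1 (-0.38 to 0.45) and Cd14 (-0.0048 to 1.59), the latter both lowest without positive replicate 1. The cause of these changes was not tested. Same-numbered samples of the groups did not pair (correlations of their deviations -0.14 to 0.34, and not every sample matched its own number best). With the replicate number as a block, edgeR called 0 genes and 21 members had an unadjusted p under 0.05, with a median of 0.58. Negative replicates 5, 6 and 7 have no positive sample of their number. The group difference in that fit therefore rests on replicates 1 to 4 of each group, matched by number only. Depth limited Timd4 and Marco.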
